A study of Mus musculus with 2 samples.

Results

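The antigen receptor loci are the 6 stretches of the mouse genome that hold the gene segments of immunoglobulins and T cell receptors, and they are described here together with 1 Mb on either side. The loci are Igh (immunoglobulin heavy chain), Igk and Igl (the kappa and lambda light chains), Tra/Trd (T cell receptor alpha, with delta inside it), Trb (beta) and Trg (gamma). The immunoglobulin (Ig) loci were taken at chr12:113256204-116009954, chr6:67555636-70726754 and chr16:19061752-19260844 of mm10. The T cell receptor (TR) loci ran from the first to the last RefSeq segment, which gave chr14:52427967-54224198, chr6:40891296-41558371 and chr13:19178042-19352343. RefSeq placed 666 segments in these loci, of 49595 genes in all, with 396 in the Ig loci and 270 in the TR loci. Of the segments, 527 were V segments and 139 were D, J or C segments. Peaks were assigned by their midpoint, which put 160 of 31623 peaks of one library and 175 of 32149 of the other in the loci and flanks. Inside the loci lay 49 and 50 peaks.

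The measurement was H3K9me2, a histone mark of repressed chromatin, by CUT&Tag, in which an antibody brings a transposase to chromatin with the mark. The study had 2 libraries of activated B cells from C57BL/6 mice, 1 with the genotype WT and 1 with the genotype jmjd1c B KO, a B cell knockout of Jmjd1c (KO below). Jmjd1c belongs to a family of histone H3K9 demethylases, and the design sets the knockout beside the wild type. The labels do not give the Cre driver, the allele, the age, the number of animals or the activating agent.

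The peak lists rested on 33474010 tags in WT and 34502392 in KO. With 1 library per genotype, differences cannot be set against a spread between replicates, and p-values are not given. Intervals are 95% intervals of counting error only, by the exact Poisson method for counts, from the exact binomial for ratios and by Clopper-Pearson for shares. Jmjd1c itself (chr10:67096351-67256326) had no peak in its body or within 2 kb in either library, which leaves the knockout unchecked by these data. Nor do H3K9me2 peaks check the cell type. No peak lay within 2 kb of any of 7 B cell marker genes, among them Pax5 and Ebf1, or of 7 of 9 T cell marker genes, where 9.69% of all coding genes had a WT peak and 9.9% a KO peak. The authors' caller extended tags to a length d of 292 bp in WT and 189 bp in KO, so pileup and width, which depend on d, are read within a library.

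Antigen receptor genes are assembled in developing lymphocytes by joining 1 V segment, in some loci 1 D segment, and 1 J segment, which are then transcribed with a C region. The RAG1 and RAG2 recombinase makes the cuts, and joining removes or inverts the DNA between the chosen segments. B cells rearrange and transcribe the Ig loci, whereas the TR loci are rearranged in the T lineage and are silent in mature B cells. H3K9me2 is laid down by the G9a and GLP methyltransferases and is found at silent genes in many cell types. Copy number over the rearranged Ig alleles was not measured here.

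The sequences used here, from RefSeq (GRCm38.p6), cover 250 bases before to 50 after a gene start, 5′ to 3′ on the gene's strand. They show the genes next to or inside the loci where a peak met a start site, with the bases under the peak in capitals. Among the genes with such a sequence, every peak that met a start site was in the KO list. Amph, the nearest gene before Trg, encodes the endocytic protein amphiphysin (chr13:18948101-18948400, plus strand, 206 bases under the peak). Pip encodes the secreted prolactin-inducible protein (chr6:41847299-41847598, plus strand, 29 bases) and Olfr457 an olfactory receptor (chr6:42472127-42472426, minus strand, 124 bases), and both lie after Trb.
Amph: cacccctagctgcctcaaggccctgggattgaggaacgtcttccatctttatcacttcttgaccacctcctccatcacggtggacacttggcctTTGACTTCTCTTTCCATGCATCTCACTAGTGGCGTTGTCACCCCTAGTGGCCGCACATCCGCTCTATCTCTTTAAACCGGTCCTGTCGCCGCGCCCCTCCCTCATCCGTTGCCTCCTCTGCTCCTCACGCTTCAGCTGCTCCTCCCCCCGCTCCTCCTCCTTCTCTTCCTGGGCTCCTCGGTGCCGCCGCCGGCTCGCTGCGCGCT
Pip: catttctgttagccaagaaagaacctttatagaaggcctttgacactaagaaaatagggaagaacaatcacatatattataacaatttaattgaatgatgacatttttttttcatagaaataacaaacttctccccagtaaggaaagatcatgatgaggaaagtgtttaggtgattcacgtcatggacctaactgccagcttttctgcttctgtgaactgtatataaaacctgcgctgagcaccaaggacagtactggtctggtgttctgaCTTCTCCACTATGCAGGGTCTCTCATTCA
Olfr457: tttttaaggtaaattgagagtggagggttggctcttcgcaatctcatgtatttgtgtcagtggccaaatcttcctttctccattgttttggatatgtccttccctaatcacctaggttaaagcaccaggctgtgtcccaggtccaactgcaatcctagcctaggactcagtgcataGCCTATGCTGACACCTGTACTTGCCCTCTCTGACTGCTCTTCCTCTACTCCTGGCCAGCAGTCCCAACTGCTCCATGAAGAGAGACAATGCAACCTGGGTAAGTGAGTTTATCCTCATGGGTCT

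The second set shows a pair of copied genes inside Trb, Prss3 (chr6:41377564-41377863, minus strand) and Gm10334 (chr6:41446048-41446347, minus strand). Both belong to the trypsinogen family of digestive protease precursors, and both carried a KO peak in their body. The capitals mark the letters TATAAA.
Prss3: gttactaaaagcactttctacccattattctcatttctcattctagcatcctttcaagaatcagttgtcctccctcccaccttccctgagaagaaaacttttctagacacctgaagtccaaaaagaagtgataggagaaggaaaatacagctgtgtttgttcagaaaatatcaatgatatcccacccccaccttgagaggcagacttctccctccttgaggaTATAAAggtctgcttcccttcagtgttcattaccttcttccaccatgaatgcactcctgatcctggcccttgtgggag
Gm10334: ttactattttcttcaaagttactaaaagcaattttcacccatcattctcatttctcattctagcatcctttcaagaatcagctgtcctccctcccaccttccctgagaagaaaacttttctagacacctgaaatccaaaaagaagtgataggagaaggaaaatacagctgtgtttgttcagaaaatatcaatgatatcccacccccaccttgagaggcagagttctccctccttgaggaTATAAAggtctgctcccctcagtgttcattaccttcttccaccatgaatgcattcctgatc
These windows were 85.7% identical by edit distance. Between Trbv30 and Trbd1 lie 8 coding genes of this family, and among the 6 with a promoter entry the 15 pairs ranged from 52% to 85.7% identity with a median of 56.3%. The letters TATAAA, searched on both strands, were in 6 of 6 of these windows and in 4473 of 32851 RefSeq windows of the same length (13.6%). Near-identical copies, V segments included, can share tags, so the placement of a peak among them is uncertain.

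The Ig loci held few H3K9me2 peaks in either library. Over 6.12 Mb there were 9 WT peaks and 6 KO peaks, or 1.47 per Mb (0.672 to 2.79) and 0.980 per Mb (0.360 to 2.13). The whole lists had 11.9 and 12.1 peaks per Mb, so the Ig loci stood at 0.124 times (0.0565 to 0.235) and 0.0811 times (0.0298 to 0.177) the density of their list. Peaks covered 0.0727% of the Ig loci in WT and 0.0409% in KO, against 0.675% and 0.554% of the chromosomes. Windows with few peaks were common, and 15.9% of windows of the length of Igh in WT and 13.8% in KO had as few peaks as Igh. For Igk these shares were 19.1% and 16.3%, and for Igl 50.9% and 49.7%.

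**Figure D1:**
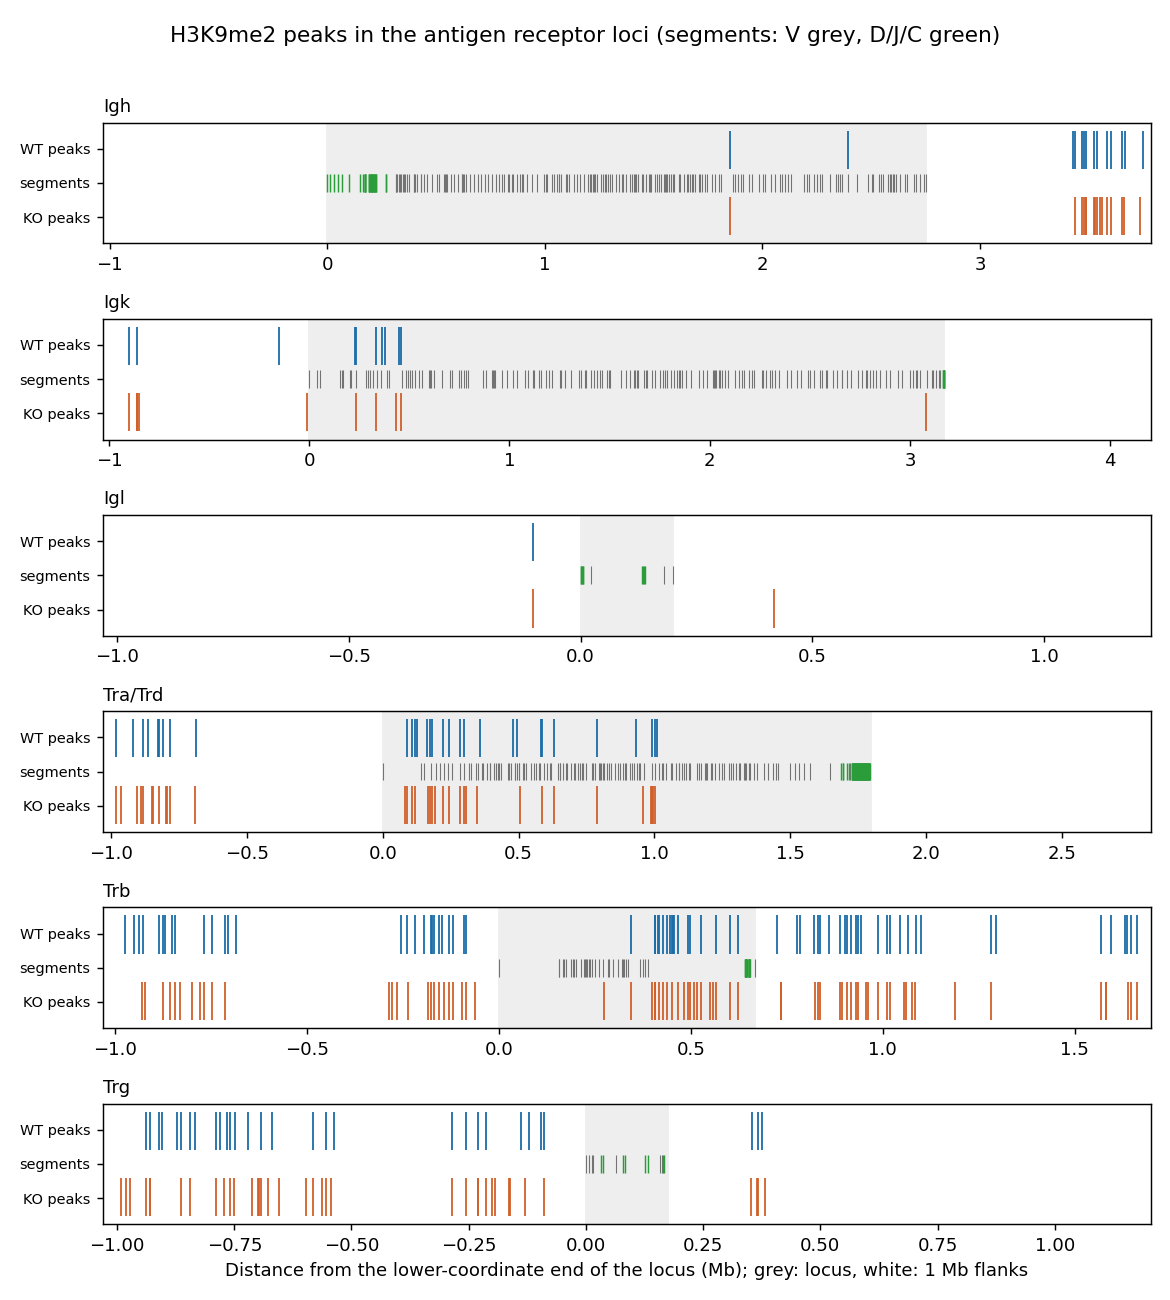
Positions of H3K9me2 peaks (WT blue above, KO orange below) and of RefSeq segments (V grey, D, J and C green) along each locus, in Mb from its lower-coordinate end; the shaded band is the locus and the white sides are its 1 Mb flanks. Peaks inside Igk crowd into the V segments of the lower-coordinate end, those inside Tra/Trd stop before the D, J and C segments, and Igl and Trg have none inside.

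Igh, with 216 segments in 2.75 Mb, had 2 WT peaks and 1 KO peak. The site found in both libraries was chr12:115105441-115105746 in WT and chr12:115105484-115105733 in KO, 14002 bp from Ighv1-50 in WT, in no segment. Its pileup, the deposited number of extended tags, was 25.67 in WT at a fold enrichment of 4.28, and 16.28 in KO at a fold enrichment of 3.85. The second WT peak, chr12:115647958-115648252, lay over the V segment Ighv8-12 and had a fold enrichment of 2.89. It was the sole peak over the body of any of the 396 Ig segments in either library. No peak was called from the constant regions to this site, and the peak-free stretch that reached into Igh ran from 110013359 to 115105440 on chromosome 12 in WT. That stretch of 5.09 Mb covered 67.2% of the locus and ranked 25 among 31602 gaps between WT peaks. In KO the stretch was 4.94 Mb and also ranked 25, where the median gap was 18.3 kb.

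Igk, with 168 segments in 3.17 Mb, had 7 WT peaks and 5 KO peaks. All 7 WT peaks and 4 of the KO peaks lay between 67782897 and 68012259 on chromosome 6, among V segments at the end of the locus away from the J segments and the C region. Within it 3 sites were in both lists. The first, within 2 kb of a V segment in both lists, was chr6:67788760-67789051 in WT and chr6:67788852-67789215 in KO, at fold enrichments of 2.89 and 3.66. The second, near Igkv14-126, was the widest in the Ig loci, at 1209 bp in WT and 1142 bp in KO (chr6:67888027-67889235 and chr6:67888115-67889256), with folds of 3.59 and 3.61. The third, 4.48 kb from Igkv1-122 in WT and 4.61 kb in KO, was chr6:68011790-68012259 in WT and chr6:68011804-68012129 in KO. It had the highest fold enrichment of the Ig loci in both lists, 4.71 and 5.30, with a −log10 q of 9.77 and 8.71. By q it ranked 462 and 440 in the lists, which makes it a stronger call than most peaks of either list.

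The other peaks in Igk were each in 1 list. In WT these were chr6:67782897-67783188 at the start of the cluster, chr6:67916545-67917061 near Igkv11-125, chr6:67931394-67931749 near Igkv9-124 and chr6:68005694-68006411 near Igkv1-122, with folds from 2.65 to 3.32. In KO they were chr6:67989732-67989964 near Igkv1-122 and chr6:70633851-70634039, 8.37 kb from Igkv3-6. The last of these was 189 bp wide, the smallest width that the caller allows in KO, and had a fold of 3.22. It lay 88.5 kb from the nearest J or C segment, where WT had no peak. Without a peak there, the WT gap after the cluster ran for 5.42 Mb, took in 85.6% of Igk and ranked 23. In KO that 189 bp peak broke the gap, and what followed it was 2.88 Mb long and ranked 78. The length of the Igk gap thus turns on 1 call, which ranked 26635 by q in the KO list.

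Igl, with 12 segments in 0.199 Mb, had no peak in either library. At its length a count of 0 allows up to 15.1 peaks per Mb (3 counts over the length, the limit used for every count of 0 in the text, while the plot of densities shows Poisson intervals), above the density of the whole lists, so a typical density cannot be told from none there. The nearest peak lay 103 kb from Iglc1 in both libraries.

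The TR loci held more peaks than the Ig loci over less DNA. In 2.64 Mb there were 40 WT peaks and 44 KO peaks, or 15.2 per Mb (10.8 to 20.7) and 16.7 per Mb (12.1 to 22.4). The ratio of TR to Ig density was 10.3 (4.93 to 24.2) in WT and 17.03 (7.23 to 48.9) in KO. Against the whole list the TR loci stood at 1.28 times (0.912 to 1.74) in WT and 1.38 times (1.003 to 1.85) in KO, so they were near the common density and the Ig loci were below it. A stretch of trypsinogen genes between Trbv30 and Trbd1 in Trb is described below. Without this stretch the TR loci had 23 and 25 peaks, and the ratio of TR to Ig was 6.56 in WT and 10.7 in KO. The 1 Mb flanks differed in the same direction, with 15.8 and 17.2 peaks per Mb beside the TR loci and 2.67 and 3.67 beside the Ig loci. In the flanks the ratio of TR to Ig was 5.94 (3.47 to 10.8) in WT and 4.68 (2.93 to 7.79) in KO. Whether the difference between Ig and TR loci goes beyond that of their surroundings was not tested.

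**Figure D2:**
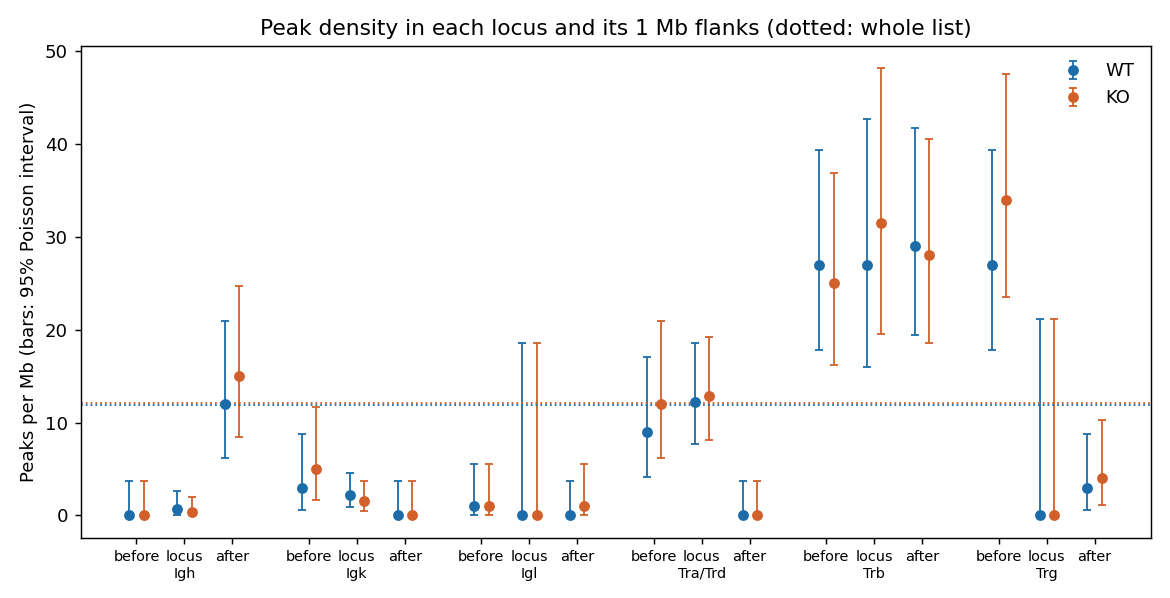
Peaks per Mb in each locus and in its lower-coordinate (before) and higher-coordinate (after) 1 Mb flank, for WT (blue) and KO (orange), with 95% Poisson intervals of counting error; the dotted lines are the whole lists at 11.9 and 12.1 per Mb. The Ig loci lie under the lines and Trb with its flanks lies above them, while Igl and Trg are at 0 with wide intervals.

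Within their own neighbourhoods the loci differed from each other. Ig loci had 0.551 times the density of their flanks in WT (0.215 to 1.32) and 0.267 times in KO (0.0886 to 0.680), and the interval excluded 1 in KO and not in WT. In WT the direction turned with the setting, to 2.94 times at a q of 1e-05 or lower, on 3 locus peaks and 1 flank peak, and to 2.204 times with flanks of 0.5 Mb, on 9 and 2 peaks. The KO ratio was 0.980 with flanks of 0.5 Mb and for peaks at least 1 kb wide. For TR loci the ratio was 0.958 (0.645 to 1.40) and 0.972 (0.667 to 1.40). It was 1.82 and 2.84 at a q of 1e-05 or lower, and 3.41 and 1.71 for peaks at least 1 kb wide. Without the trypsinogen stretch between Trbv30 and Trbd1 the TR ratio was 0.609 and 0.610. Igh stood at 0.121 times its flanks in WT (0.0132 to 0.544) and 0.0484 times in KO (0.00115 to 0.315). Tra/Trd stood at 2.72 times (1.20 to 6.72) and 2.13 times (1.02 to 4.71), and Trb at 0.964 times (0.533 to 1.66) and 1.19 times (0.681 to 2.003).

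Tra/Trd, with 202 segments in 1.80 Mb, had 22 WT peaks and 23 KO peaks, all among V segments. They fell between 52508494 and 53438864 on chromosome 14, a stretch of 0.930 Mb with 84 segments. Before this stretch lay 0.0805 Mb with 1 V segment and no peak. After it lay 0.785 Mb with 117 segments, namely 51 V segments and all 66 D, J and C segments, and no peak. The peak-free gap that began there ran on past the end of the locus and was 2.67 Mb long in all in WT and 2.65 Mb in KO, with 80 and 78 coding genes inside, and ranked 98 and 95. Windows of this length had a median of 15 peaks, and 38.04% in WT and 38.5% in KO had as many as Tra/Trd.

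In Tra/Trd 13 of the 22 WT peaks were overlapped by a KO peak. Over V segment bodies there were WT peaks at Trav4-1, Trav9d-3 and Trav4-2, and KO peaks at Trav4-1, Trav4d-2 and Trav4-2. At Trav4-1 the WT peak was chr14:52607507-52607997, with a pileup of 25.47 and a fold of 2.61. The KO peak there was chr14:52607603-52607925, with a pileup of 19.91 and a fold of 3.13. At Trav4-2 the peaks were chr14:53418496-53419109 in WT and chr14:53418847-53419035 in KO, with folds of 2.68 and 3.03. At Trav4d-2 the KO peak, chr14:52711286-52712054, reached the segment, and the WT peak, chr14:52711472-52711837, ended 70 bp from it. The letters d and n in such names mark copies from the duplications of this V region, so the 3 Trav4 sites may share tags. Peaks of both libraries also lay within 2 kb of Trav6d-3 and Trav6-3.

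The strongest Tra/Trd site by pileup lay near Trav6-2, at chr14:52670485-52671811 in WT and chr14:52671160-52671795 in KO. The WT pileup was 32.27 at a fold of 2.86, and the KO pileup 27.38 at a fold of 3.54. A KO peak at chr14:53385895-53386087, near Trav7-2, had the highest KO fold of the locus, 4.28, with no WT peak over it. Beside the segments the locus held 4 coding genes, and 1 of these, Gm36448, had a peak of both libraries within 2 kb. The median WT pileup in Tra/Trd was 22.2 with a range of 16.7 to 32.3, below the 25.3 of the whole WT list. In KO it was 18.9 with a range of 14.1 to 27.4, close to the 19.1 of the whole KO list.

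Trb, with 53 segments in 0.667 Mb, had 18 WT peaks and 21 KO peaks, and none of them lay over a segment. Between Trbv30 and Trbd1, at chr6:41281991-41533200, the locus holds 251 kb of trypsinogen genes, with 8 coding genes and 3 pseudogenes. This stretch had 17 WT peaks and 19 KO peaks, which were 94.4% and 90.5% of the peaks in Trb. Its density was 67.7 peaks per Mb (39.4 to 108) in WT and 75.6 per Mb (45.5 to 118) in KO. Among 10582 windows of its length the median was 1 peak, and 2.38% in WT and 1.66% in KO had as many. Peaks covered 5.10% of it in WT and 4.42% in KO. The V spans of Trb, with 35 V segments, summed to 0.391 Mb. They also hold the coding genes Prss58, 1700074P13Rik, 1810009J06Rik, Gm2663 and 2210010C04Rik, which had no peak within 2 kb in either library. In these V spans lay 1 WT peak and 2 KO peaks. The shared one lay 7.27 kb from Trbv26 in WT and 7.37 kb in KO, at chr6:41235187-41235654 with a fold of 3.87 and chr6:41235286-41235669 with a fold of 3.45. The other was a KO peak of 189 bp, chr6:41165276-41165464, 1.72 kb from Trbv17.

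**Figure D3:**
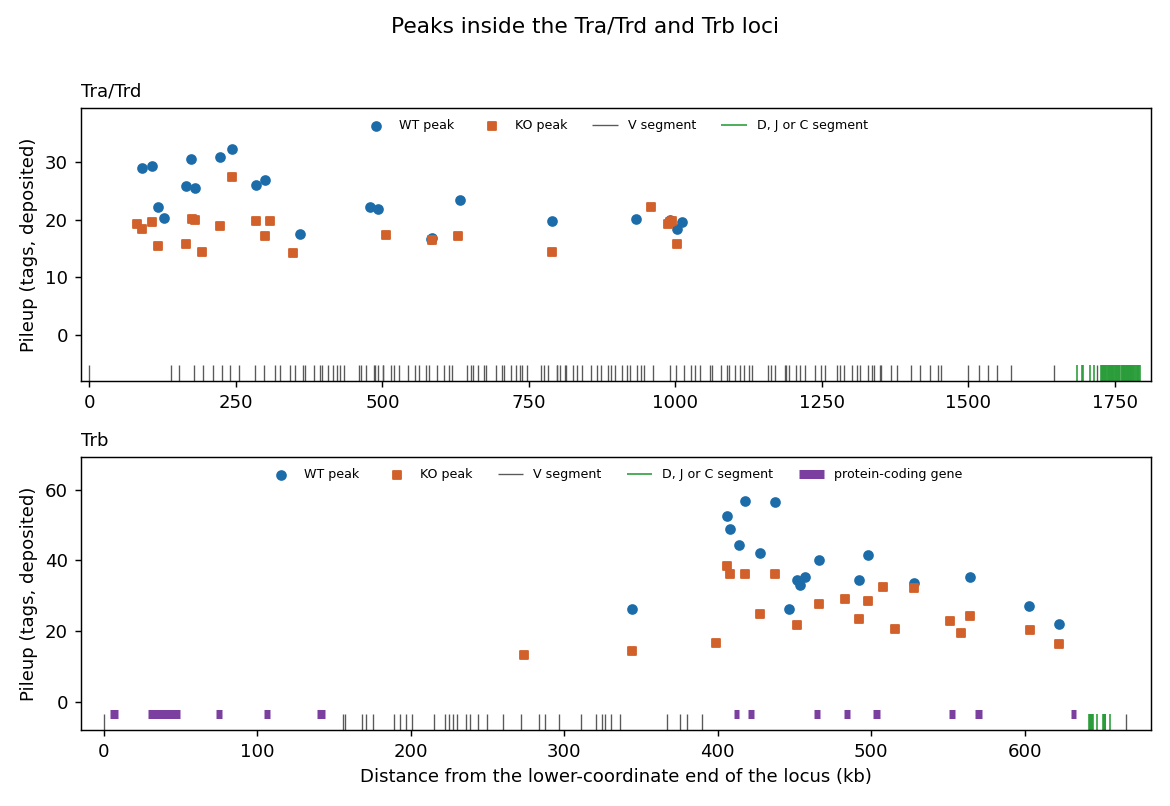
Deposited pileup of each peak inside Tra/Trd (top) and Trb (bottom) against its distance in kb from the lower-coordinate end of the locus, WT as blue circles and KO as orange squares, with V segments, D, J and C segments and, for Trb, coding genes marked under the points. In Trb 17 WT and 19 KO points fall in the trypsinogen stretch, and 1 and 2 among the V segments; the WT pileup in the stretch reaches 56.8 against 32.3 at most in Tra/Trd; pileups are compared within a library, since they depend on d.

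The trypsinogen stretch also had high tag levels. The median WT pileup was 35.4 with a range from 22 to 56.8, and the median KO pileup was 24.9 with a range from 16.5 to 38.4. Of the whole lists, 15.7% of WT peaks and 12.4% of KO peaks reached these medians. The highest WT pileup was at chr6:41308736-41309367, 56.83 at a fold of 2.65, where the KO peak, chr6:41308693-41309490, had a pileup of 36.23 at a fold of 2.84. The widest KO peak, 1692 bp, was at chr6:41296811-41298502, over a WT peak of 1461 bp at chr6:41296943-41298403. Peaks of at least 1 kb numbered 6 of 17 in WT and 2 of 19 in KO, where the whole lists had 8.29% and 5.01%. Most of these peaks lay between the genes, with 2 WT peaks in coding bodies, at Try4 and Try10, and 3 KO peaks, at Try10, Prss3 and Gm10334. The stretch also held the last peak before the D segments, 19.3 kb from Trbd1 in WT and 19.5 kb in KO.

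Trg, with 15 segments in 0.174 Mb, had no peak in either library, a count that allows up to 17.2 peaks per Mb. The peak-free stretch around it was 0.444 Mb in WT and 0.440 Mb in KO. Of windows of the 0.174 Mb length of Trg, 52.9% in WT and 52.1% in KO had no peak.

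In each of the 6 loci, the spans of D, J and C segments held no peak in either library. These spans summed to 0.473 Mb, where a count of 0 allows up to 6.34 peaks per Mb. This limit is under the density of the whole lists but above that of the V spans given next. The count of 0 therefore cannot show fewer peaks than in the V spans. The same holds for the Ig loci and the TR loci taken apart. In the TR loci alone the limit is also above the density of the whole lists. The V spans, with 7.66 Mb in all, held 32 WT peaks and 31 KO peaks, or 4.18 per Mb (2.86 to 5.89) and 4.04 per Mb (2.75 to 5.74). The Ig V spans had 1.61 and 1.07 peaks per Mb, and the TR V spans 11.2 and 12.1. The DNA between V and D, J and C spans held the other 17 and 19 peaks, all of them in the trypsinogen stretch. When each boundary was set in the middle of the gap, the V parts had 45 and 44 peaks and the D, J and C parts 4 and 6, since the middle of the gap in Trb cuts through the trypsinogen genes. The D, J and C part then had 5.09 peaks per Mb (1.39 to 13.04) in WT and 7.64 per Mb (2.80 to 16.6) in KO, against 5.64 and 5.52 in the V part.

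Counted by segment, 9 of 666 segments had a WT peak within 2 kb and 7 had a KO peak, all of them V segments. Among Ig segments these were 2 in WT (0.505%) and 1 in KO (0.253%), and among TR segments 7 (2.59%) and 6 (2.22%). Of all 5 kb windows of the chromosomes, 6.36% met a WT peak and 6.29% a KO peak. Within 10 kb there were peaks at 1.43% of Ig V segments in WT and 1.15% in KO, and at 15.2% and 14.04% of TR V segments, where 17.8% and 17.9% of 20 kb windows met one. The share of TR V segments was thus nearer to that of the windows than the share of Ig V segments was. No D, J or C segment had a peak within 10 kb, and the nearest peak to any of them lay 19.3 kb away in WT and 19.5 kb in KO, in Trb. The median distance from an Ig segment to a peak was 846 kb in WT and 651 kb in KO, and from a TR segment 101 kb and 77.2 kb.

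The local background against which the caller tested each peak also differed between the loci. It follows from the deposited pileup and fold enrichment, and its lowest value is the genome-wide level of 5.23 tags in WT and 3.49 in KO. Of the Ig peaks, 4 of 9 in WT and 5 of 6 in KO were called at that level within 1%, against 12.6% and 14.4% of the whole lists. The median background under Ig peaks was 5.43 tags in WT and 3.49 in KO. Under Tra/Trd peaks it was 7.01 and 5.04 tags, and in the trypsinogen stretch 13.7 and 9.10, which is 2.62 and 2.61 times the genome-wide level. The whole lists had medians of 8.68 and 5.49 tags. The median fold of Ig peaks was 3.14 in WT and 3.64 in KO, and that of trypsinogen peaks 2.47 and 2.70. By median fold enrichment the Ig peaks were above the trypsinogen peaks, and by median pileup they were below.

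**Figure D4:**
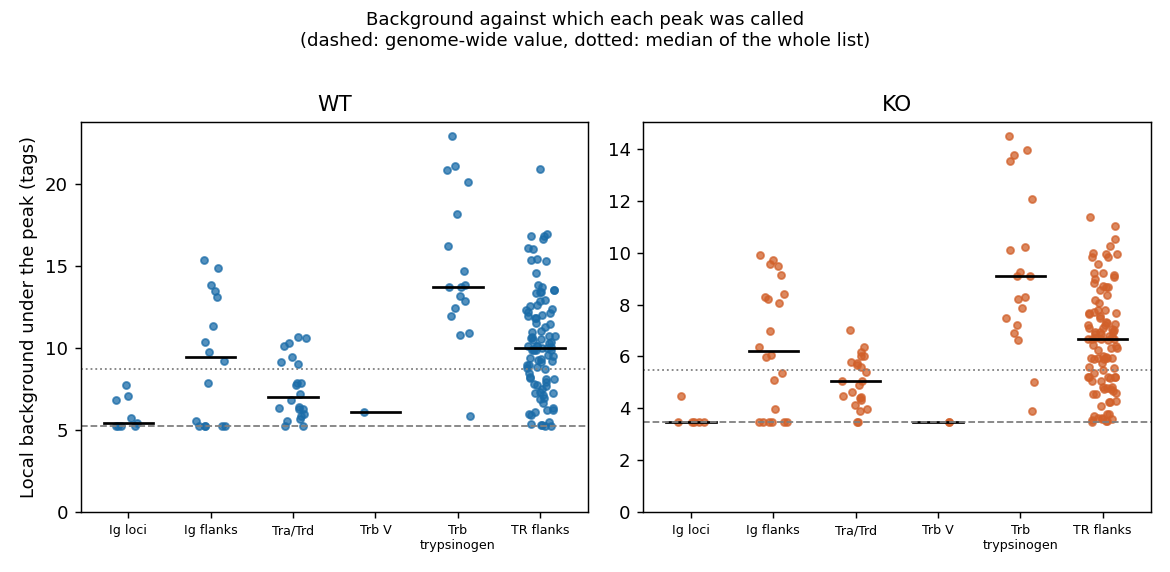
Local background in tags under each peak, by region, in WT (left) and KO (right), with horizontal bars for the median; the dashed line is the genome-wide level and the dotted line the median of the whole list. Ig peaks lie at or near the dashed line (5.23 and 3.49 tags), and most peaks of the trypsinogen stretch lie above the dotted line.

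The flanks were as uneven as the loci. Of the 12 flanks, 8 had a WT peak and 9 a KO peak, where 76.2% of 1 Mb windows met a WT peak and 77% a KO peak. At least 25 peaks were in 3 flanks in both libraries, namely both flanks of Trb and the one before Trg, against 15.1% and 15.6% of 1 Mb windows. The flank before Igh and the flanks after Igk and after Tra/Trd had no peak in either library, which allows up to 3 per Mb each. These 3 flanks hold 27, 17 and 38 coding genes, among them Cd8a and Cd8b1, the T cell coreceptor genes after Igk, and Kdm3a, an H3K9 demethylase of the same family as Jmjd1c. Of the 12 coding genes nearest to the locus ends, 3 had a WT peak within 2 kb and 2 a KO peak, where 9.69% and 9.9% of all coding genes did. Those without a peak included Tmem121 and Zfp386 beside Igh, Rpia after Igk, Olfr164 after Igl, Olfr1510 and Dad1 beside Tra/Trd, Moxd2 before Trb and Stard3nl after Trg. Hira before Igl and Amph before Trg had peaks in both libraries, and Ephb6 after Trb in WT.

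Of 219 coding genes in the flanks, 15 had a WT peak in the body or within 2 kb (6.85%) and 17 a KO peak (7.76%), against 9.69% and 9.9% of all coding genes. In the Ig flanks 2 of 101 genes had one, the same genes in both libraries. Ptprn2, a phosphatase-like protein of secretory granules, spans 792 kb (chr12:116485695-117278167) and held 12 WT and 15 KO peaks, which were all the peaks of the flank after Igh. Hira, a chaperone of histone H3.3, held 1 peak in each. The peaks of the flank before Igk, 3 in WT and 5 in KO, lay in no coding gene, and 1 of them in each list was a strong call. This was chr6:66696166-66696547 in WT, with a fold of 4.63, and chr6:66696276-66696467 in KO, with a fold of 5.49.

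In the TR flanks 13 of 118 genes had a WT peak (11.0%) and 15 a KO peak (12.7%), with 9 in both lists. Before Trb, Tmem178b held 14 WT and 11 KO peaks. Mgam, which encodes the intestinal enzyme maltase-glucoamylase, held 11 and 8. Before Trg, Amph held 6 and 9. Before Tra/Trd, the overlapping predicted genes Gm7247 and Gm5622 held 5 and 6 each. After Trb, the olfactory receptor genes Olfr458 and Olfr455 and the gene Sval1 had 1 peak in each library. Long genes thus held most peaks of the flank before Trb, whereas the genes after Trb with a peak had 1 or 2 each.

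KO and WT counts were close inside the loci. The ratio of KO to WT peak number was 1.02 (0.674 to 1.55) inside all loci, 0.667 (0.195 to 2.10) in the Ig loci, 1.10 (0.700 to 1.73) in the TR loci and 1.13 (0.865 to 1.47) in all flanks, where the whole lists gave 1.02. These intervals, other than that of the whole lists, include 1, and differences within them were not detectable at this depth. Inside all loci the ratio was 0.545 at a q of 1e-05 or lower and 0.400 for peaks at least 1 kb wide, and both q and width depend on d. The largest difference in number in 1 region was in the flank before Trg, with 27 WT and 34 KO peaks, a ratio of 1.26 (0.737 to 2.17). Of the 6 flanks with at least 5 peaks in a list, 1 had a KO count at least 1.5 times the WT count, the flank before Igk, and 0 the reverse, where 12.3% and 9.72% of such 1 Mb windows did.

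Many sites inside the loci were in both lists. Of the WT peaks, 31 of 49 (63.3%, 48.3 to 76.6%) shared at least 1 bp with a KO peak, and of the KO peaks 31 of 50 (62%, 47.2 to 75.3%) shared it with a WT peak. The whole lists had 46.4% and 45.9%, and the flanks 52.3% and 46.4%. In the TR loci the shares were 67.5% and 61.4%, and in Trb 14 of 18 and 14 of 21. In the Ig loci 4 of 9 WT peaks and 4 of 6 KO peaks were shared. Of the coding genes of the flanks, 15 had a WT peak in the body or within 2 kb, 17 a KO peak and 11 both. Some of the genes with peaks in 1 list are given here. Trpv5 had 2 WT peaks and no KO peak, and its neighbour Trpv6, also an epithelial calcium channel gene, had 2 KO peaks and no WT peak. Ephb6, an ephrin receptor gene, and Olfr456 had 1 WT peak each and no KO peak. Pip and Olfr457 had 2 KO peaks each and no WT peak within 2 kb. At the start of Amph, shown above, the KO peak was chr13:18948195-18948637 with a pileup of 20 at a fold of 2.52, and the nearest WT peak ended 0.505 kb before the printed window. Such differences rest on 1 library each.

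Genes of recombination and receptor signalling elsewhere in the genome were read against all coding genes, of which 9.69% had a WT peak and 9.9% a KO peak within 2 kb. Of 24 such genes, among them Rag1, Rag2 and the end-joining genes Xrcc4, Xrcc5 and Lig4, 23 had no peak within 2 kb in either library. The exception was Themis, a thymocyte selection gene, with 22 WT and 23 KO peaks. Bcl11b, a T lineage transcription factor gene, had 1 WT peak and no KO peak. The absence of a peak is not the absence of the mark, since the caller compares each site with its surroundings of 10 kb, and a broad even domain can go uncalled.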

How the data were processed

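The data were broad peak lists of H3K9me2 CUT&Tag in activated B cells, with 1 WT and 1 KO library as the genotype label gives them. Tools in the submitters' processing notes are deepTools, HOMER, MACS2, Picard, SAMtools 1.11, Bowtie2 2.4.2 and Trim Galore 0.6.6, with mm10 as the build and no roles given. Each library's peaks were called by the authors, per the file headers, with MACS 2.2.7.1 in broad mode at q and broad thresholds of 0.01, keeping all duplicates, with an effective genome size of 1870000000, no control and a background window of 10 kb. The deposited pileup column is coverage by extended tags, a signal that was left unscaled between libraries. The deposited p-values and q-values are given as −log10. The deposited fold enrichment, a ratio of pileup to local background from the authors' caller, is used here to describe and rank peaks within a list. Without a control, regions that attract tags in any library stay in the lists, and kept duplicates can make narrow towers.

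The members and lists were chosen with earlier results of these data known. Local background was computed as (pileup + 1) / fold enrichment − 1. Genes and segments came from the RefSeq table of GRCm38.p6, the assembly behind mm10, after 348 scaffold genes were left out. D, J and C spans are runs of consecutive segments of these classes. Gaps between peaks and consecutive windows of each locus's length describe the genome. Named were all peaks inside the Ig loci, flank genes with a peak in both libraries, the gene with most peaks per locus and the genes nearest to locus ends. TR peaks are given in part, as ranges and the sites in segments, and genes with peaks in 1 library were chosen after their values were seen. Values of some single genes are left out here. Python 3.11.15, pandas 2.3.3, numpy 2.4.6 and scipy 1.17.1 were used, and the counting and interval functions were tested on simulated data. Alternatives were a q of 1e-05 or lower, a minimum width of 1 kb, peaks joined across 5 kb or less, any overlap in place of the midpoint, peaks with a pileup of 100 or more left out, KO peaks widened by 103 bp, flanks of 0.5 and 2 Mb, gaps between V and D, J and C spans left out, a reciprocal overlap of 50% and, chosen after seeing the data, Trb without the trypsinogen stretch.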

Additional observations from a re-analysis of the deposited data

How the results depend on the processing

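Of 139 alternative values of 20 results, 88 were classed as the same and 51 as moved. A ratio was the same if it stayed within the interval of the value reported. A count was the same if it stayed within a factor of 1.5 of the value reported. Merging peaks, any overlap, leaving out very high pileups and widening KO peaks moved none. No peak in the loci or their flanks reached the cut for very high pileups, so that setting could not change a value. Widening KO peaks by 103 bp could hardly change counts in regions of this length, and the WT peaks with a KO partner stayed at 31. Of the 88 values classed as the same, 20 came from the pileup setting and 11 from the widening, and these say little about robustness. The TR to Ig density ratio stayed above 1 throughout, from 6.19 to 20.9. With the trypsinogen stretch left out it was 6.56 in WT and 10.7 in KO, the TR loci had 23 and 25 peaks and their ratio to flanks was 0.609 and 0.610. At a q of 1e-05 or lower, in WT and KO, the Ig loci had 3 and 1 peaks, Ig flanks 1 and 3, TR loci 8 and 5, TR flanks 10 and 4, V parts 11 and 5, and D, J and C parts 0 and 1. The locus to flank ratio was then 2.94 for Ig in WT, and 1.82 and 2.84 for TR. For peaks at least 1 kb wide, the Ig loci had 1 and 1, Ig flanks 4 and 1, TR loci 9 and 3, TR flanks 6 and 4, and V parts 7 and 4, with 0 in the KO D, J and C parts. The locus to flank ratio was then 0.980 for Ig in KO, and 3.41 and 1.71 for TR, and the KO TR to Ig ratio was 6.97. The KO to WT ratio inside the loci was 0.545 at the stricter q and 0.400 at 1 kb, and 3 WT peaks had a KO partner under either, or 19 at a reciprocal overlap of 50%. Flanks of 0.5 Mb held 2 and 3 Ig peaks and 45 and 49 TR peaks, with an Ig ratio of 2.204 and 0.980, and flanks of 2 Mb held 56 and 72, and 189 and 199. With gaps between spans left out, D, J and C spans had 0 and 0. The causes of these moves were not tested beyond the fewer peaks or other lengths that each setting makes. No paired analysis was possible because each genotype has 1 library and the labels carry no replicate numbers.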
